A study of Drosophila melanogaster with 8 samples.

Results

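The comparison set subjective day against subjective night in clock neurons of adult Drosophila melanogaster brains, with time of day as the only factor. All 8 libraries entered it: the subjective day group held the 4 libraries labelled CT0 or CT6, and the subjective night group held the 4 labelled CT12 or CT18. CT is circadian time in hours, where CT0 is the time at which lights would have come on, and each of the 4 times had 2 libraries (replicates 1 and 2). Every library, day or night, came from the same genotype, with ClkGAL4 and UAS-GFP-NLS on one chromosome and UAS-mor-RNAi (a Bloomington stock) on its partner, so the knockdown of mor is shared by both groups, and libraries without it were not analysed here. Flies had been entrained for 5 days to equal spans of light and dark and were taken on the second day of constant darkness. Living cells with green fluorescence were sorted, and their polyadenylated RNA was read. The GFP reporter and the interfering RNA follow Clk-GAL4, a driver built from regulatory sequence of the clock gene Clk, so the sorted cells are those in which the driver was on. The labels do not say whether the libraries of 1 time came from separate sorts of separate flies, so p-values measure the spread between these libraries, which may be technical.

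The fly clock runs on a loop of transcription. The CLK and CYC proteins switch on per, tim, vri, Pdp1 and cwo, and the PER and TIM proteins return to the nucleus late at night and shut CLK and CYC off. In a second loop VRI represses Clk and PDP1 activates it, and in wild-type fly heads Clk RNA is known to peak around dawn while per, tim and vri RNA peak around dusk and early night. CRY is the blue-light receptor of the clock, and mor encodes a subunit of the Brahma chromatin remodelling complex.

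Total estimated counts ran from 21928087 to 29346348 in subjective day libraries and from 15006258 to 28447624 in subjective night libraries. Levels are given in CPM, counts scaled to library size, with TMM factors. Every neuron marker was detected, elav (a pan-neuronal RNA-binding protein) at 92.5 to 128 CPM in day libraries and 82.7 to 129 CPM in night libraries. The glial regulator repo stayed below 1 CPM in every library, at 0 to 0.714 CPM by day and 0.0646 to 0.547 CPM by night. The summed level of 12 glial markers was 247 to 399 CPM in day libraries and 270.5 to 412 CPM in night libraries, and that of 13 photoreceptor markers was 122 to 489 CPM by day and 148 to 431 CPM by night. The 9 hemocyte markers tested summed to 105 to 203 CPM by day and 77.4 to 278 CPM by night. These ranges overlap, and the part of other cells in the results below was not tested.

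The targeted gene, mor, had 11.5 and 13 CPM at CT0 and 21.8 and 7.9 CPM at CT6, against 11.4 and 13.2 CPM at CT12 and 4.14 and 4.41 CPM at CT18. Both CT18 libraries were the lowest of the 8, and the day and night libraries overlapped. The day mean exceeded the night mean by 0.80 log2 units (two-sided exact permutation test over 70 assignments of libraries, p = 0.229, where 0.0286 is the smallest p that 4 against 4 libraries allow). Because both groups carry the knockdown, this value does not measure its strength.

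Features of library composition, 3 of the 7 examined, separated day from night libraries completely. Ribosomal RNA entries took 2.53 ± 0.287% of counts in day libraries and 1.76 ± 0.318% in night libraries (SD, n = 4 each; exact permutation p = 0.0286, 0.0667 after Benjamini-Hochberg adjustment over 7 measures). The 10 most abundant genes of each library held 13.5% to 16.1% of its counts by day and 8.3% to 12.0% by night, and the TMM factors were 0.958 to 0.986 by day and 1.02 to 1.06 by night, each with the same pair of p-values. The 3 measures draw on the same counts, so they are not separate evidence. The ribosomal RNA and mitochondrial lists behind 2 of the 7 measures were added after the data were seen. Total counts, the number of genes detected, the mitochondrial share and the correlation of expression with gene length overlapped between day and night. Levels of long against short genes varied widely among libraries of 1 group: Spearman's rho between a gene's deviation from its mean and its length, over 5766 genes, ran from -0.34 to 0.68 in day libraries and from -0.56 to 0.47 in night libraries.

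**Figure D1:**
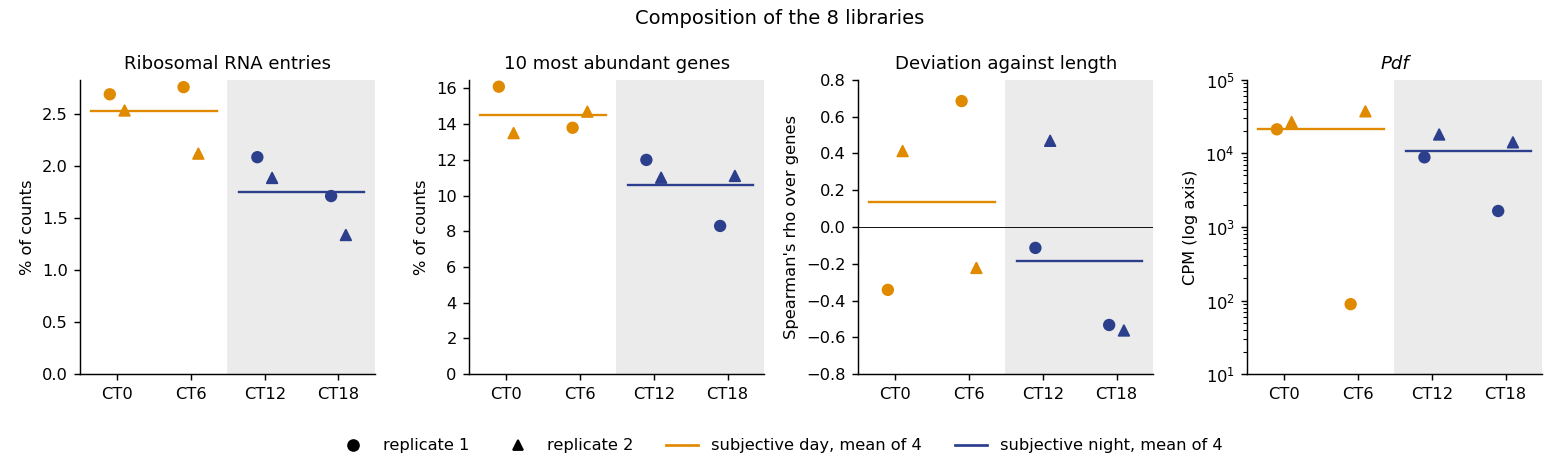
Composition of each library by circadian time: the share of counts in ribosomal RNA entries, the share in the 10 most abundant genes of a library, Spearman's rho of expression deviation against gene length, and Pdf in CPM on a log axis. Circles are replicate 1, triangles replicate 2 and lines the mean of 4 libraries; the first 2 shares are higher in every day library (white background) than in any night library (grey background), whereas the other 2 measures overlap.

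The whole-transcriptome comparison asked which genes differ in level between subjective day and subjective night. With edgeR's quasi-likelihood test no gene of 9999 passed a Benjamini-Hochberg adjusted p of 0.05 (0% called; smallest adjusted p = 0.94). At an unadjusted p below 0.05 there were 391 genes (3.91%, where 500 would be the nominal number), 274 of them higher in day (2.74%) and 117 lower in day (1.17%). In 203 genes (2.03%) the 4 day libraries did not overlap with the 4 night libraries: 129 (1.29%) were higher in every day library and 74 (0.74%) lower. Of the 70 ways to assign 4 libraries to day, a share of 0.0286 separates the libraries of any 1 gene completely. The share of genes seen was not above this, so lack of overlap alone does not mark a gene as changed. The count at an unadjusted p below 0.05 was 845 without CT12 replicate 2, 669 without CT0 replicate 1 and 255 without CT18 replicate 2, with 0 genes passing in each of these fits. DESeq2, the other count test, passed 15 genes (0.15%), 10 higher (0.1%) and 5 lower (0.05%) in day, of which 13 did not overlap, while limma-voom passed 0.

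Most differences were small against the spread between libraries. The interquartile range of fitted changes (day minus night) over all genes was -0.21 to 0.28 log2 units. The median biological coefficient of variation among libraries of the same group, day or night, was 0.31. That spread includes differences between the times within a group. Among 5460 genes with a mean of at least 20 CPM, 77 (1.41%) were higher in every day library and 29 (0.53%) lower. Of these 106 genes, 6 in the first set and 1 in the second had a fitted change of at least 1 log2 unit, and the median size was 0.49 and 0.41 log2 units. In what follows no gene passed in edgeR, so changes are descriptions with their standard error (SE), and a pass in DESeq2 is named where there was one.

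**Figure D2:**
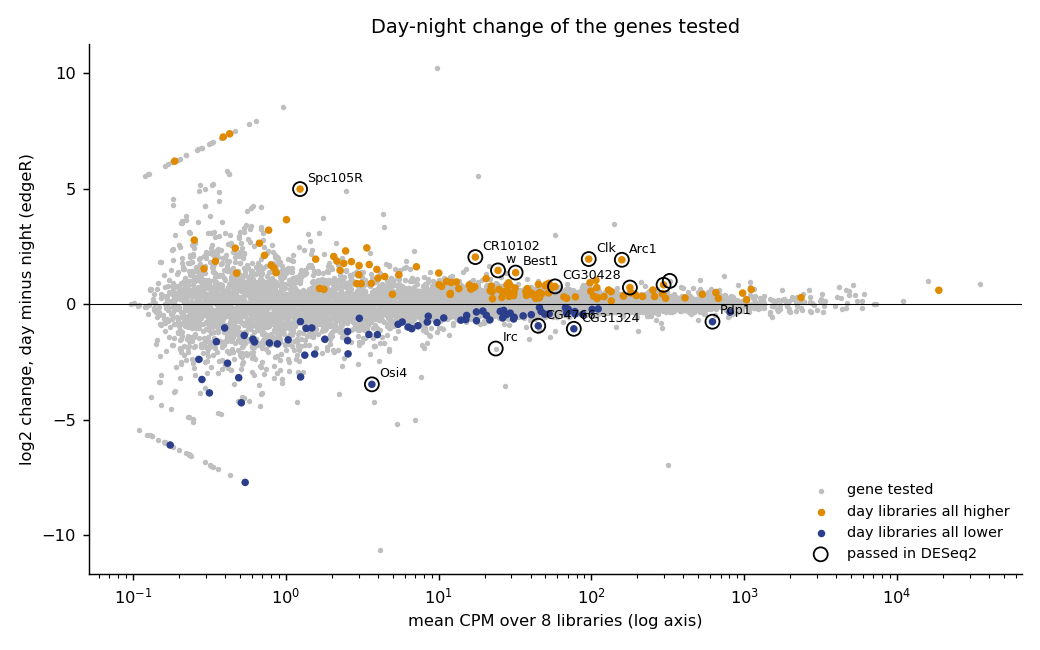
Fitted log2 change (day minus night, edgeR) against mean CPM (log axis) for all genes tested. Coloured points are the 129 genes with every day library above every night library and the 74 with every day library below; circles ring the 15 genes that passed in DESeq2, with names for those that are not ribosomal RNA.

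Among the 8 core clock genes, Clk was higher in subjective day and Pdp1 lower, each without overlap, and the other 6 overlapped. Over all genes tested the share without overlap was 2.03%. Clk, the activator at the head of the loop, had 86.7 and 297 CPM at CT0 and 112 and 116 CPM at CT6, against 23.3 and 45.2 CPM at CT12 and 60.4 and 28.1 CPM at CT18. The lowest day library lay above the highest night library, and CT0 replicate 2 was far above the rest. Mean Clk was 3.89-fold higher in day (log2 change 1.96 ± 0.42 SE, edgeR adjusted p = 0.94, DESeq2 adjusted p = 0.000804). Without CT0 replicate 2 the change was 1.42 log2 units. In sorted bulk samples, fewer cells of a type and less RNA per cell cannot be told apart.

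Pdp1, which encodes the activator of the second loop, had 521 and 486 CPM at CT0 and 529.7 and 309.6 CPM at CT6, against 705 and 869 CPM at CT12 and 831 and 707 CPM at CT18. All 4 night libraries lay above 700 CPM and all 4 day libraries below 600 CPM. Its change was -0.75 ± 0.19 (edgeR adjusted p = 0.97, DESeq2 adjusted p = 0.0495), and it stayed between -0.83 and -0.60 whichever library was left out. The difference was present in both pairs of opposite times, at -0.64 for CT0 minus CT12 and -0.92 for CT6 minus CT18.

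The other targets of CLK and CYC did not separate. For tim, which encodes the partner of PER, day libraries had 88.7 and 127 CPM at CT0 and 379 and 168 CPM at CT6, against 319 and 644 CPM at CT12 and 238 and 354 CPM at CT18. Both CT0 libraries were the lowest, while CT6 replicate 1 lay above 3 of the 4 night libraries. The fitted change of tim was -1.03 ± 0.44 (edgeR unadjusted p = 0.0382, adjusted p = 0.97), and its opposite-time differences were -2.09 for CT0 minus CT12 and -0.20 for CT6 minus CT18. Without CT6 replicate 1 the change of tim was -1.60, and without CT12 replicate 2 it was -0.67.

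For vri, the repressor of Clk, day libraries had 39 and 45.2 CPM at CT0 and 226 and 80.5 CPM at CT6, against 154 and 369 CPM at CT12 and 108 and 144 CPM at CT18. CT6 replicate 1 again stood with the night libraries. Its change was -0.99 ± 0.56, made up of -2.51 for CT0 minus CT12 and 0.11 for CT6 minus CT18. Without CT6 replicate 1 the change of vri was -1.82, and without CT12 replicate 2 it was -0.47. Whether these paired differences of tim or vri differ from each other was not tested, and grouping CT6 with CT0 averages them.

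For per, the repressor that pairs with TIM, day libraries had 7.87 and 18.1 CPM at CT0 and 35.5 and 17.3 CPM at CT6, against 17.8 and 27.1 CPM at CT12 and 8.45 and 18.4 CPM at CT18. The lowest and the highest of the 8 were both day libraries. Its change was 0.14 ± 0.45, at -0.88 for CT0 minus CT12 and 0.99 for CT6 minus CT18. The sign of the per change turned to -0.32 without CT6 replicate 1, to -0.10 without CT18 replicate 1 and to -0.11 with the length trend removed.

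The remaining members were near 0 or within the spread. The transcriptional partner of CLK, cyc, averaged 54.3 ± 9.43 CPM in day libraries and 53.3 ± 6.14 CPM in night libraries (SD, n = 4 each), with a change of 0.03 ± 0.18. The feedback repressor cwo averaged 48.5 ± 15 CPM by day and 61.2 ± 28.7 CPM by night (-0.33 ± 0.31), and without CT12 replicate 2 its change was 0.04. The light receptor cry had 432 and 1148 CPM at CT0 and 359.6 and 822 CPM at CT6, against 262 and 745 CPM at CT12 and 397 and 499 CPM at CT18. At each of the 4 times replicate 2 of cry was higher than replicate 1, and the change was 0.54 ± 0.39, between 0.18 without CT0 replicate 2 and 0.84 without CT12 replicate 2.

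**Figure D3:**
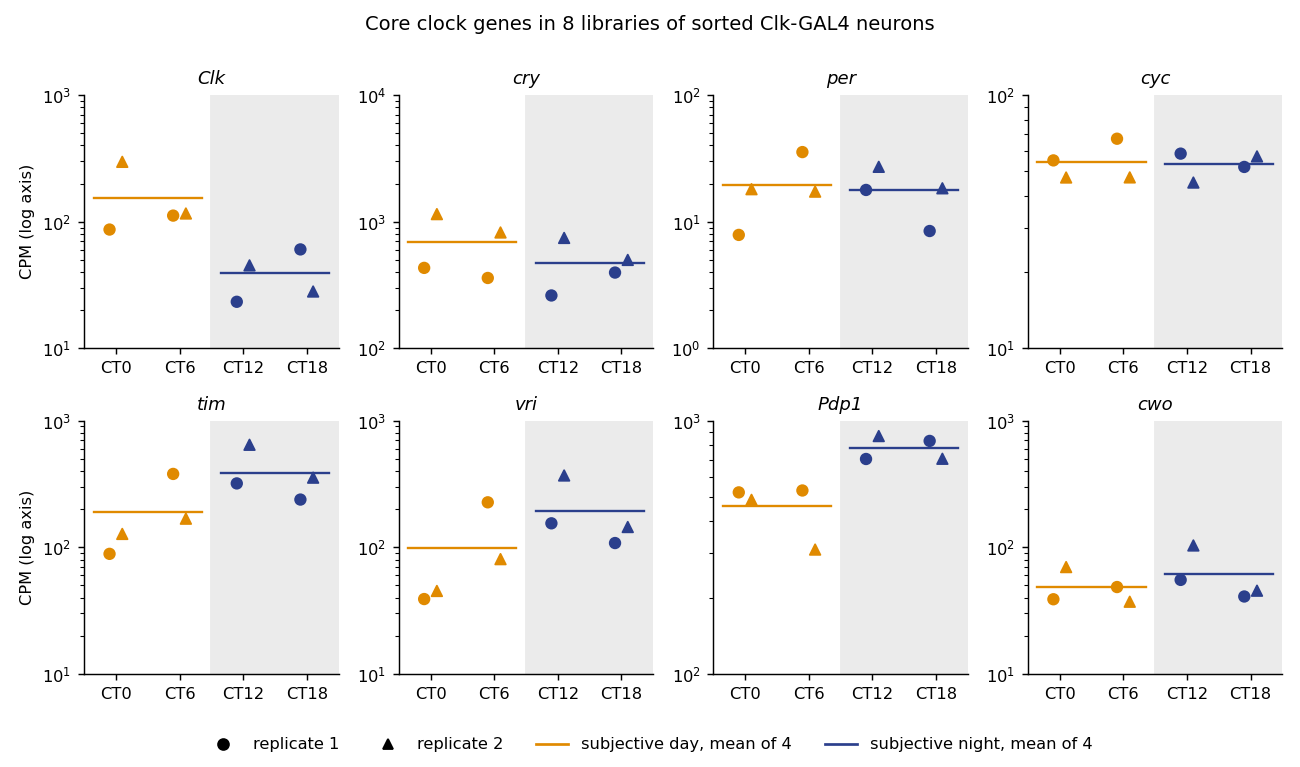
Level of the 8 core clock genes in each library (CPM, log axes) by circadian time. Circles are replicate 1 and triangles replicate 2, lines are means of 4 day (orange) or 4 night (blue) libraries; the groups are apart for Clk and Pdp1 and overlap in the other 6 panels.

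Clk and Pdp1 are close neighbours on the same strand, and a gene between them also separated day from night. In the Ensembl annotation of BDGP6 (the assembly also called dm6) Clk lies at chr3L:7763233-7775603 and Pdp1 at chr3L:7811458-7867369, both on the minus strand. CG32369 fills chr3L:7777105-7809825 on that strand, 1501 bases from Clk and 1632 bases from Pdp1. CG32369 had 19.3 and 59.6 CPM at CT0 and 16 and 17.2 CPM at CT6, against 13.6 and 12.4 CPM at CT12 and 11.9 and 13.8 CPM at CT18. Its highest library, CT0 replicate 2, is also the highest for Clk. The change of CG32369 was 1.12 ± 0.41 in edgeR, with an unadjusted p of 0.0194, and without CT0 replicate 2 it was 0.44. Of the 3 neighbours, the outer pair had changes of opposite sign and the middle one had the sign of Clk.

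Outside the clock, Arc1 had the third smallest p of all genes and was higher in every day library. Arc1 encodes a protein related to retroviral Gag that forms capsids and carries its own RNA between cells at synapses. It lies at chr2R:14357927-14360297, minus strand. Arc1 had 149 and 343 CPM at CT0 and 165 and 345 CPM at CT6, against 39.9 and 124 CPM at CT12 and 55.3 and 44.7 CPM at CT18. In day libraries replicate 2 was well above replicate 1, and the lowest day library lay above the highest night library. Mean Arc1 was 3.81-fold higher in day (1.93 ± 0.41, edgeR adjusted p = 0.94, DESeq2 adjusted p = 0.000639). Both pairs of opposite times had the difference, 1.69 for CT0 minus CT12 and 2.26 for CT6 minus CT18, and leaving out any 1 library kept it between 1.73 and 2.43.

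The pseudogene CR10102 paralleled Arc1 (2.05 ± 0.43, DESeq2 adjusted p = 0.00641). It begins 135 bases from Arc1 on the same strand, and its level was 9.76% to 13.8% of that of Arc1 in every library, so both entries may share reads and are not separate evidence. Arc2, the related gene 143 bases beyond it, overlapped between day libraries (3.65 to 5.9 CPM) and night libraries (1.95 to 4.59 CPM). The other genes of neuronal activity did not separate. Of 9 listed, 7 were higher in day with a median change of 0.16, and 0 passed. None had an unadjusted edgeR p below 0.05, against 3.91% of all genes tested. Among them Hr38, a nuclear receptor induced by firing, ranged from 13.3 to 72.3 CPM by day and from 18.2 to 49.2 CPM by night (0.16 ± 0.46).

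Best1 and w had the eighth and ninth smallest p. Best1, which encodes a bestrophin chloride channel, had 32 and 75.5 CPM at CT0 and 43.3 and 33.6 CPM at CT6, against 13.2 and 16.7 CPM at CT12 and 19.2 and 22 CPM at CT18. The groups did not overlap, and CT0 replicate 2 was the highest library. Its change was 1.37 ± 0.30 (DESeq2 adjusted p = 0.0232), and 1.03 without CT0 replicate 2.

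The gene w, whose product is a subunit of the transporter of eye pigment precursors, had 18.8 and 38.7 CPM at CT0 and 51.3 and 35.2 CPM at CT6, against 17.4 and 10.7 CPM at CT12 and 9.18 and 14.7 CPM at CT18. The lowest day library, CT0 replicate 1, was only slightly above the highest night library. The change was 1.47 ± 0.32 (DESeq2 adjusted p = 0.0239). A copy of w is a common marker on fly transgenes, and the labels do not say whether these transgenes carry one.

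CG30428 varied little within each group: it had 76.4 and 76.6 CPM at CT0 and 72.2 and 66.6 CPM at CT6, against 46.9 and 49.5 CPM at CT12 and 38.2 and 35.8 CPM at CT18. The gap between the groups was wider than the spread inside either, at a change of 0.78 ± 0.16 (DESeq2 adjusted p = 0.0293). By contrast Spc105R, a kinetochore gene that also passed in DESeq2 (adjusted p = 0.0297), had 0.496, 1.9, 4.81 and 2.43 CPM in day libraries. Its night libraries had 0, 0.194, 0.104 and 0 CPM, none of them above the floor of 3 counts. CG31626 and CG16853 were at 0 in all 4 night libraries and at most 1.59 CPM in any day library. Spc105R, CG31626 and CG16853 met the filter on low counts through day libraries alone. Their direction thus depends on the filter and is not separate evidence of a difference. CG31626 was named after its values were seen.

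Several neuronal regulators were also higher in every day library without passing in either tool. The transcription factor dimm, which sets the secretory character of peptide neurons, had 51.8 and 35.4 CPM at CT0 and 27.4 and 36.2 CPM at CT6, against 27.2 and 22.3 CPM at CT12 and 12.6 and 16.9 CPM at CT18. The groups touched, with CT6 replicate 1 almost level with CT12 replicate 1, and the change was 0.93 ± 0.28 (edgeR unadjusted p = 0.00689). Syt1, the calcium sensor of vesicle release, averaged 767 ± 155 CPM in day libraries and 538 ± 90 CPM in night libraries (SD, n = 4 each; 0.51 ± 0.19). Dh44-R1, a receptor for the peptide DH44, averaged 183 ± 7.15 CPM by day and 142 ± 22.8 CPM by night (0.37 ± 0.15).

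The genes gce and Ac76E were named after their values were seen. The first, which encodes a juvenile hormone receptor, ranged from 51.6 to 83.6 CPM in day libraries and from 37.3 to 47.9 CPM in night libraries (0.69 ± 0.19). The second, an adenylate cyclase gene, ranged from 25.8 to 38.2 CPM by day and from 19.2 to 23.5 CPM by night (0.53 ± 0.19). Neither overlapped between day and night.

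**Figure D4:**
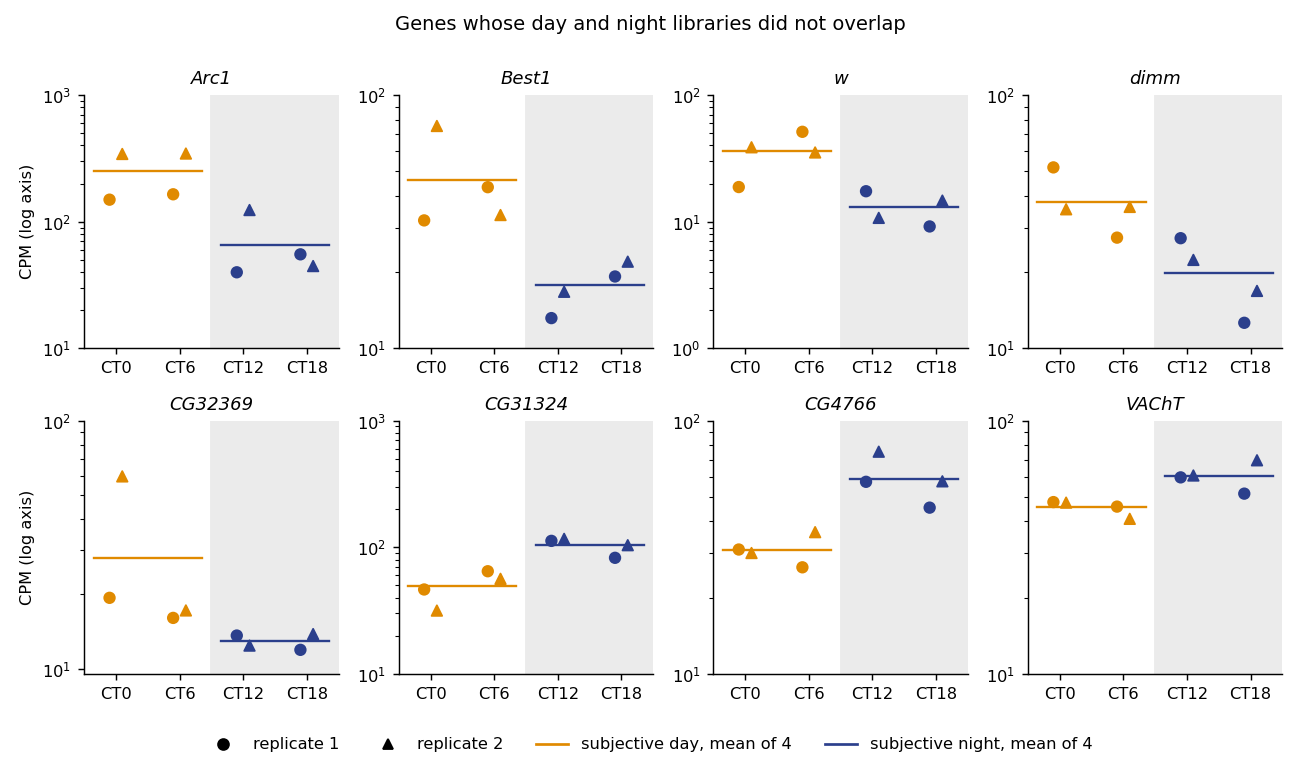
Level in each library (CPM, log axes) of 8 genes whose day and night libraries did not overlap, 5 higher and 3 lower in day. Circles are replicate 1, triangles replicate 2 and lines the mean of 4 day (orange) or 4 night (blue) libraries; no day library lies within the range of the night libraries in any panel, and in dimm the groups nearly touch.

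Among genes with a mean of at least 20 CPM, 29 (0.53%) were lower in every day library and 77 (1.41%) higher. In both sets most changes were below 1 log2 unit. Osi4, a member of the insect Osiris family, had the smallest p of all genes. It had 0.638 and 0.717 CPM at CT0 and 0.905 and 0.143 CPM at CT6, against 3.66 and 6.2 CPM at CT12 and 6.36 and 10.7 CPM at CT18. The groups were far apart at a low level, with a change of -3.47 ± 0.66 (edgeR adjusted p = 0.94, DESeq2 adjusted p = 0.000282).

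CG31324 had 46.4 and 31.6 CPM at CT0 and 64.6 and 56.3 CPM at CT6, against 112 and 116 CPM at CT12 and 82.5 and 104 CPM at CT18. Both CT0 libraries were the lowest and both CT12 libraries the highest (-1.06 ± 0.23, DESeq2 adjusted p = 0.0147). CG4766 averaged 30.9 ± 4.1 CPM in day libraries and 58.9 ± 12.4 CPM in night libraries (SD, n = 4 each; -0.93 ± 0.20, DESeq2 adjusted p = 0.0239). Neither gene overlapped between day and night.

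The vesicular acetylcholine transporter VAChT had 47.7 and 47.4 CPM at CT0 and 45.7 and 40.9 CPM at CT6, against 59.7 and 60.7 CPM at CT12 and 51.5 and 69.7 CPM at CT18. Day libraries were lower throughout, by -0.41 ± 0.16 in the fit (edgeR unadjusted p = 0.0253). ChAT, the enzyme that makes acetylcholine, had a change of 0.05. Also lower in every day library were l(2)k01209 (-0.63 ± 0.20), the glycosylphosphatidylinositol anchor gene PIG-X (-0.67 ± 0.22) and the forkhead factor slp1 (-0.59 ± 0.27, and -0.31 without CT12 replicate 2).

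Irc, an immune-regulated catalase, passed in DESeq2 (adjusted p = 0.0409) although its libraries overlapped. It had 9.75 and 12.1 CPM at CT0 and 10.4 and 7.38 CPM at CT6, against 22.8 and 8.78 CPM at CT12 and 51.4 and 66.7 CPM at CT18. The 2 CT18 libraries carried most of the difference (-2.73 for CT6 minus CT18, -0.38 for CT0 minus CT12). Cyp4g1, a hydrocarbon-producing cytochrome of oenocytes, was at 0 in all day libraries and at 0.274, 0, 1.49 and 1.71 CPM in night libraries. Cyp4g1 met the filter on low counts through the CT18 libraries alone, so its direction is not separate evidence. E(spl)m6-BFM, a gene of the Notch-responsive Enhancer of split complex, had 39.2 and 56 CPM at CT0 and 11.2 and 10.5 CPM at CT6, against 87.8 and 78.3 CPM at CT12 and 96.1 and 48.7 CPM at CT18. One night library lay below 1 day library, and the change was -1.41 ± 0.50.

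Among the 16 genes for transmitters tested, the largest day-higher change was that of Trh. Trh, the rate-limiting enzyme of serotonin synthesis, had 437 and 359 CPM at CT0 and 1157 and 817 CPM at CT6, against 364 and 364 CPM at CT12 and 277 and 339.8 CPM at CT18. Both CT6 libraries stood above all others, while CT0 lay within or near the night range. The change was 1.04 ± 0.33 (edgeR unadjusted p = 0.00885), with 0.12 for CT0 minus CT12 and 1.66 for CT6 minus CT18. The serotonin transporter SerT had 122 and 136 CPM at CT0 and 586 and 279 CPM at CT6 (0.97 ± 0.45). Its night libraries ranged from 103 to 191 CPM, so both CT0 libraries lay within the night range. The vesicular monoamine transporter Vmat, which is not specific to serotonin, averaged 1428 CPM by day and 739 CPM by night (0.95). SerT and Vmat were named after their values were seen. Of 16 transmitter genes 11 were higher and 5 lower in day, 0 passed, and the median change was 0.13. With the length trend removed 5 were higher and 11 lower (median -0.06), and without CT6 replicate 1 7 were higher and 9 lower (median -0.05). The change of Trh without CT6 replicate 1 was 0.68.

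None of 16 clock neuron peptides separated day from night, and of 16 peptide receptors 1 did, Dh44-R1, against 2.03% of all genes tested. Pdf, the main output peptide of the ventral lateral neurons, had 21182 and 26519 CPM at CT0 and 89.3 and 37187 CPM at CT6, against 8822 and 18007 CPM at CT12 and 1647 and 14088 CPM at CT18. CT6 replicate 1 was the lowest of the 8 and CT6 replicate 2 the highest, and the change was 1.00 ± 1.08. Of 16 peptide genes 10 were higher and 6 lower in day (median 0.19), and of the receptor genes likewise 10 and 6 (median 0.16), with 0 passing in either list. With the length trend removed the receptors split 8 to 8 (median -0.01), and without CT0 replicate 1 the peptides did (median -0.01). CNMa, a peptide of dorsal clock neurons, had 80.7, 186, 225 and 13.4 CPM in day libraries and 227, 222, 222 and 451 CPM in night libraries (-1.15 ± 0.62, and -0.77 without CT6 replicate 2). The Pdf receptor, Pdfr, ranged from 80.4 to 137 CPM by day and from 63.6 to 99.5 CPM by night (0.40 ± 0.20).

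Lists of genes are described by counts of members higher and lower in day beside the same for all genes tested, where 5053 were higher (50.5%) and 4946 lower, with a median change of 0.00. No member of any list passed in edgeR, so each count is of signs only. All 17 heat shock genes tested were higher in day, with a median of 0.33. Hsp70Ba, a stress-induced chaperone, had 2902 and 4113 CPM at CT0 and 9669.6 and 4103 CPM at CT6, against 3423 and 4019 CPM at CT12 and 2209.5 and 2869.8 CPM at CT18. CT6 replicate 1 stood far above the rest, and the other 3 day libraries lay within or just above the night range. The summed level of the list was 26080 to 64252 CPM in day libraries and 25942 to 38985 CPM in night libraries. Without CT6 replicate 1 the median was 0.22 and the change of Hsp70Ba 0.24, and between 14 and 17 members were higher whichever library was left out. The Hsp70 copies are near-identical, so their reads may be shared and their signs are not separate.

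Of 13 genes of the unfolded protein response 12 were higher in day (median 0.25), and 9 without CT6 replicate 1 (median 0.17). Hsc70-3, the main chaperone of the endoplasmic reticulum, had 736 and 1176 CPM at CT0 and 1852 and 886 CPM at CT6, against 768 and 859 CPM at CT12 and 351 and 623 CPM at CT18. CT6 replicate 1 was again the highest and CT18 replicate 1 the lowest (0.84 ± 0.33, edgeR unadjusted p = 0.0262). Gp93, another chaperone there, had a change of 0.79 ± 0.33. Without CT6 replicate 1 the change was 0.52 for Hsc70-3 and 0.49 for Gp93.

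Of 15 genes of synaptic release 12 were higher in day (median 0.18), against 7 with the length trend removed (median -0.01) and 9 without CT6 replicate 1 (median 0.06). Syx1A, the syntaxin of the fusion machinery, was among the 3 lower ones, at 709 ± 82 CPM in day libraries and 951 ± 128 CPM in night libraries (SD, n = 4 each; -0.42 ± 0.16). Of 18 genes for kinases, phosphatases and other modifiers of clock proteins 15 were higher (median 0.15; 12 with the length trend removed, median 0.05). The ubiquitin ligase ctrip had a change of 0.48 ± 0.25 (0.30 without CT0 replicate 2), while the ubiquitin protease Usp8 was lower (-0.39 ± 0.19). Of 16 tested outputs known to cycle in heads 10 were higher and 6 lower (median 0.15), against 7 and 9 with the length trend removed (median -0.06). Fas2, an adhesion molecule of axons, had the smallest p among these and ranged from 73 to 162 CPM by day and 59.6 to 92.2 CPM by night (0.73 ± 0.25).

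Of 28 ion channel genes 13 were higher in day (median -0.04), against 6 with the length trend removed (median -0.21) and 7 without CT6 replicate 1 (median -0.16). KCNQ, a potassium channel, had a change of 1.04 ± 0.46, and 0.63 without that library. Of 20 amine and amino acid receptors 13 were higher (median 0.15; 0.01 with the length trend removed), of 11 sleep regulators 5 (median -0.02), and of 9 genes of neurite plasticity 5 (median 0.03). The Brahma complex was split 6 to 6 with a median of -0.04, and its subunit osa averaged 35.6 ± 3.95 CPM in day libraries and 26.5 ± 4.28 CPM in night libraries (SD, n = 4 each; 0.43 ± 0.19). Of 8 tested Notch pathway genes 4 were higher (median -0.01), of 11 oxidative defence genes 6 (median 0.04), and of 8 immune effectors 5 (median 0.33, between 32.3 and 81.7 CPM in sum).

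Genes of oxidative phosphorylation, ribosomal proteins and the proteasome were mostly lower in day, and all 3 lists turned to mostly higher with the length trend removed. With an offset for effective length all 3 stayed mostly lower: 58 of 65, 75 of 86 and 25 of 35 genes, with medians of -0.21, -0.09 and -0.09. That offset follows only changes of a gene's own effective length between libraries. It cannot remove a trend between long and short genes, so these counts do not bear on that trend. Whichever library was left out, 55 to 58 genes of oxidative phosphorylation were lower. The part of gene length in these lists was not tested. Of 65 genes of oxidative phosphorylation 58 were lower in day (median -0.17), and with the length trend of each library removed 39 of 65 were higher in day. Of 86 ribosomal protein genes 65 were lower in day (median -0.05), whereas 79 were higher with the length trend removed and 66 were higher without CT6 replicate 1. Of 35 proteasome genes 24 were lower (median -0.06), against 15 with the length trend removed. Genes of the first 2 lists are short, with a median effective length of 416 bases for oxidative phosphorylation and 376 bases for ribosomal proteins, against 1607 bases over all genes tested. Among 12 glycolytic genes 8 were higher in day (median 0.08), with the pyruvate kinase gene PyK at 0.60 ± 0.20. Of 12 mitochondrially encoded genes, also a list added after the data were seen, 11 were lower in day (median -0.19), and without CT18 replicate 1 only 6 were.

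Markers of other cells were uneven between day and night libraries. Of 12 glial markers 10 were lower in day (median -0.28), led by the glutamine synthetase gene Gs2 at 48.5 ± 19.3 CPM in day libraries and 81.6 ± 38.1 CPM in night libraries (SD, n = 4 each; -0.75 ± 0.38, and -0.46 without CT12 replicate 1). The glial median was -0.69 without CT0 replicate 1 and -0.09 without CT0 replicate 2. Of 13 photoreceptor markers 8 were higher and 5 lower, against 3 and 10 without CT0 replicate 2 and 4 and 9 with the replicate number as a block. The 2 photoreceptor markers of smallest p, both rhodopsin genes lower in day, were carried by single night libraries. ninaE reached 177 CPM in CT18 replicate 2 and at most 16 CPM elsewhere, and Rh4 reached 52.2 CPM in CT12 replicate 1 and at most 1.56 CPM elsewhere. The summed level of the photoreceptor list was highest in a day library, CT0 replicate 2, at 489 CPM. Of 9 hemocyte markers 3 were higher in day (median -0.30), but 8 were higher without CT12 replicate 1 (median 1.98) and 1 without CT6 replicate 2 (median -1.63), and 6 with the replicate number as a block (median 0.91). Of 6 Kenyon cell markers 3 were higher (median 0.13), of 4 fat body markers 1 (median -0.44) and of 2 muscle markers 1. The muscle myosin gene Mhc had no count. Among 8 neuron markers 6 were higher in day (median 0.12), and among 12 clock neuron markers 7 (median 0.18).

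Ribosomal RNA entries, a list added after the data were seen, were nearly all on one side. Of 19 tested 18 were higher in day with a median of 0.73. Of these entries 14 had an unadjusted edgeR p below 0.05, against 2.74% of all genes in that direction. The libraries of 10 did not overlap, against 1.29% of all genes in that direction. The entry 28SrRNA:CR45837 had 24338 and 22536 CPM at CT0 and 24951 and 18802 CPM at CT6, against 18080 and 15662 CPM at CT12 and 14347 and 11273 CPM at CT18. Day libraries were higher throughout, narrowly at CT6 replicate 2 against CT12 replicate 1 (0.61 ± 0.16). The entries are near-identical copies that may share reads, so their signs count as 1 measurement, and 3 of them (18SrRNA:CR41548, 28SrRNA-Psi:CR40596 and pre-rRNA:CR45847) are among the 15 genes that passed in DESeq2. The libraries were made from polyadenylated RNA, and the source of this difference between day and night libraries was not tested. With these entries left out of the table, edgeR again passed 0 genes.

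**Figure D5:**
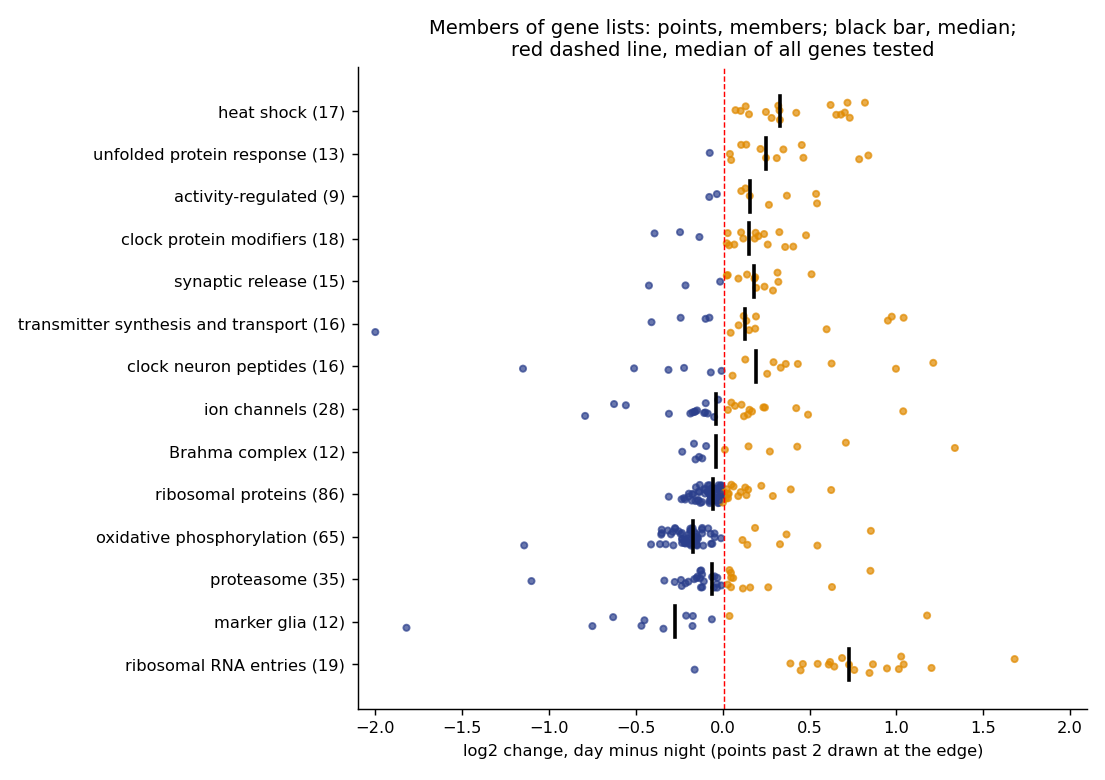
Fitted log2 change (day minus night, edgeR) of every tested member of 14 gene lists, with the number tested in brackets. Black bars are list medians and the red dashed line is the median of all 9999 genes; all 17 heat shock genes and 18 of 19 ribosomal RNA entries lie to the right of 0, and 58 of 65 oxidative phosphorylation genes to the left.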

How the data were processed

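Salmon-layout gene tables were read for 8 libraries. Per the file headers each of 17868 genes, named by symbol, has an effective length, a TPM value and an estimated count as deposited by the authors. The submitters' processing notes name DRAGEN, Salmon and the build dm6. Roles, versions and the use of strand are not given there, so reads of genes that overlap or lie antisense may be mixed. Estimated (expected) counts were rounded. Genes were kept by filterByExpr (minimum count 10, the 4 times as groups), which left 9999 of 13499 with a count. Counts were scaled by TMM and fitted with edgeR 4.0.16 (R 4.3.3; quasi-likelihood test, day or night as the factor, Benjamini-Hochberg adjustment at 0.05). The SE of a change is its size over the square root of F. Means of CPM carry no prior count. A count of 3 sets the floor of detection, 0.102 to 0.2 CPM by library, and covers counting error only. The test was run on simulated data first. The deposited TPM values and effective lengths were used only in alternatives. The alternatives were RLE scaling, other filters, DESeq2 1.42.0, limma-voom (limma 3.58.1), log2 TPM, a robust prior, the 4 times as a factor, a replicate block, 2 length corrections and leaving out each library. Leaving out ribosomal RNA entries, and list counts under each alternative, were added after the data were seen.

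The genes and lists were chosen with earlier results of these data known. Named genes were the core clock and mor, the 10 of smallest p in each direction where fewer passed, up to 2 per list, and the 6 largest changes in each direction among genes without overlap and at least 20 CPM; others are said to be chosen after their values were seen, as were the further examples within lists and the genes passing in DESeq2 alone. Coordinates are from Ensembl release 115 (BDGP 6.54), which need not be the annotation the authors used. Figures were drawn with matplotlib 3.10.9.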

Additional observations from a re-analysis of the deposited data

Results flagged for a closer look

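Among 178 groups of 4 libraries (day or night, each gene named by the rule and some library measures), 13 held a library far from the other 3. Genes were compared on the log2 scale, and chance flags about 1 group in 20. Genes named after their values were seen were not examined in this way. Pdf is one of them, at 89.3 CPM in CT6 replicate 1 against 21182 to 37187 CPM in the other day libraries. In day libraries the flagged values were Pdp1 at 309.6 CPM in CT6 replicate 2, 18SrRNA:CR41548 at 252 CPM and CG15628 at 284 CPM in CT6 replicate 1, CG32369 at 59.6 CPM in CT0 replicate 2, and AttD at 1.19 CPM and Yp2 at 0.714 CPM in CT6 replicate 2. In night libraries they were 18SrRNA:CR41548 at 289 CPM and slp1 at 48.1 CPM in CT12 replicate 2, CNMa at 451 CPM and AttD at 41.7 CPM in CT18 replicate 2, AstC at 5769 CPM and CG6126 at 20.7 CPM in CT18 replicate 1, and Rh4 at 52.2 CPM in CT12 replicate 1. No library stood apart in more than 3 of the groups examined. By median Spearman correlation with the other libraries, CT6 replicate 1 was the lowest at 0.947, against 0.961 to 0.970 for the rest.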

How the results depend on the processing

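Under every alternative but DESeq2 (15 genes), the number of genes passing was 0, including the fit with the replicate number as a block, where 374 genes had an unadjusted p below 0.05. Deviations of same-numbered libraries correlated between -0.07 and 0.23, so the numbers were not taken to pair libraries. The numbers were not without structure. At each of the 4 times replicate 1 had the higher total count, ribosomal RNA share and mitochondrial share, and replicate 2 the higher cry. The mitochondrial share was 0.111% to 0.192% in replicate 1 libraries and 0.0693% to 0.0984% in replicate 2 libraries. Whether the numbers mark a batch is not given and was not tested. The count at an unadjusted p below 0.05 was 693 of 13499 genes without a filter, and 255 to 845 of 9999 over the fits that leave out 1 library. Genes without overlap numbered 134 of 7088 with a filter of 5 CPM, against 203 of 9999 in the main fit. They numbered 344 to 846 of 9999 with 1 library left out, where 3 libraries face 4 and separation is easier by construction. The day minus night change turned sign for per (-0.11 with the length trend removed), cyc (-0.030 and -0.031 with TPM pseudocounts of 1 and 0.1, -0.00643 with effective length) and Hml (0.93 with limma-voom). With 1 library left out the changes ran from -0.32 to 0.40 for per, -0.094 to 0.087 for cyc, -0.56 to 0.042 for cwo, -0.066 to 0.56 for RpL39, -11.01 to 2.82 for AttD, -2.21 to 0.78 for CG6126 and -1.89 to 1.07 for Hml; the cause was not tested. Single genes had a median biological coefficient of variation of 0.31, which limits what 4 libraries a group can show.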
